A study of Mus musculus and Rattus norvegicus with 12 samples.

Results

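The genes described here are 10 that encode collagen hydroxylases and helpers of collagen folding: P4ha1, P4ha2, P4hb, Plod1, Plod2, Plod3, Serpinh1, Fkbp10, Crtap and Colgalt1. They were taken by symbol from 24411 mouse and 17315 rat symbols, and all 10 are present in the tables of both species. The set was selected on earlier results of these data, among them the high Fkbp10 level in pXEN lines, so the Fkbp10 difference between pXEN and the other mouse lines is a description and was not tested. RNA-seq counts of 12 lines were used, each from a separately derived line collected after 2 days of culture. The groups were 4 rat XENP lines (CX1 and MAX8 of the WKY strain, MAX2 and MAX3 of the F344 strain), 3 mouse pXEN lines (pXEN2, pXEN4 and pXEN6), 3 mouse XEN lines (XEN1, XEN2 and XEN5) and 2 mouse ES lines (ES2 and ES3). pXEN2, XEN2, XEN5, ES2, CX1 and MAX3 were male and the other lines female. The count tables of the pXEN lines carry the name XENP with the same line numbers, and the groups follow the labels' cell types. All mouse lines were of the ICR strain, all lines came from blastocysts, and no transgene or genetic change is named in the labels. XEN lines are extraembryonic endoderm stem cells, which represent the primitive endoderm of the blastocyst, the source of yolk sac endoderm. pXEN and XENP lines shared a culture protocol, XEN lines grew with serum on mouse embryo fibroblasts, and ES lines grew with serum, LIF and the inhibitor pair called 2i. Cell type and culture therefore differed together between the mouse groups and cannot be told apart.

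Collagen chains are modified and folded in the endoplasmic reticulum before they are secreted. Prolyl 4-hydroxylase, built of an alpha subunit and the P4hb protein, hydroxylates prolines and so stabilises the triple helix. Lysyl hydroxylases of the Plod family modify lysines, Colgalt1 adds galactose to the resulting hydroxylysines, and Serpinh1, Fkbp10 and Crtap assist folding. Parietal endoderm, one derivative of the primitive endoderm, secretes the type IV collagen of Reichert's membrane.

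The promoter windows of P4ha1, P4ha2, P4hb and Serpinh1 are printed. The first 3 genes were chosen because they encode alpha subunits of prolyl 4-hydroxylase or the P4hb protein. Serpinh1 was chosen for its fold over ES lines, the largest among the members. These genes are 4 of the 5 members whose window holds ACGTG. Each window spans 250 bases before to 50 bases after the start and is written 5′ to 3′ on the gene's strand, from RefSeq on GRCm38.p6. Capitals mark ACGTG, or CACGT, its reverse complement. ACGTG is part of the core of the hypoxia response element. The windows lie at chr10:59323046-59323345 (plus strand, P4ha1), chr11:54100674-54100973 (plus strand, P4ha2), chr11:120573204-120573503 (minus strand, P4hb) and chr7:99353190-99353489 (minus strand, Serpinh1). The P4ha2 window lies inside the gene span given below, which begins at 54100095, so its start is not the first base of that span.
P4ha1: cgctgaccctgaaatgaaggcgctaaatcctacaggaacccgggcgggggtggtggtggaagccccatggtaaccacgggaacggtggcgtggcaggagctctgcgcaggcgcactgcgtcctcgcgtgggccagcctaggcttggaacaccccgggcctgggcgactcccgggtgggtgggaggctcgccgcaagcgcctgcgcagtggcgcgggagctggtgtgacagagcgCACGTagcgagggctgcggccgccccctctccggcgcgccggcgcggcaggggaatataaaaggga
P4ha2: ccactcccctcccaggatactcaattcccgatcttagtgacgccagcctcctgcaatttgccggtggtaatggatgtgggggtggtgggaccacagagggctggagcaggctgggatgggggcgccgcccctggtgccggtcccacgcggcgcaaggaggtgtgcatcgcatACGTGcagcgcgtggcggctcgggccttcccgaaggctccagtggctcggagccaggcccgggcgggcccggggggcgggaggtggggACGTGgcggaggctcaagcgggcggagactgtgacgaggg
P4hb: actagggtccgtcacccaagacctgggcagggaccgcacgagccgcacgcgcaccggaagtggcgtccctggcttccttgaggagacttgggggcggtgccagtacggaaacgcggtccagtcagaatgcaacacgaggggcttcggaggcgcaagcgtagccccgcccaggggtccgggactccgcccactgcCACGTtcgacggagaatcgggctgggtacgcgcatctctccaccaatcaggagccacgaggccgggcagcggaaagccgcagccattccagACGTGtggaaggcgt
Serpinh1: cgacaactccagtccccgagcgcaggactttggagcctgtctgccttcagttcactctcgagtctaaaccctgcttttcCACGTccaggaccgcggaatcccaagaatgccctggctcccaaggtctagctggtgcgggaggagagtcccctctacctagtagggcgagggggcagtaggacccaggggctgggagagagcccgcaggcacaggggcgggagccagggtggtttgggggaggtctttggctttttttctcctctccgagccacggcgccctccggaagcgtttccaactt
ACGTG was searched on both strands and was found in 5 of the 8 members with a window (these 4 and Plod3), against 19.7% of 27025 promoter windows. CCACG, which closes the endoplasmic reticulum stress element, was found in 7 of 8 members and in 32.7% of windows. CCAAT was found in 2 of 8 members and in 37.9% of windows, and TGACG, part of the cyclic AMP response element, in 3 of 8 members and in 21.0%. ACGTG and CCACG can share letters, so the counts are not separate from each other. The matches describe letters in these windows only. Fkbp10 and Plod2 had no entry. Colgalt1 had 2 windows and was counted as 1 member.

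The mouse lines held 2661691 to 3483069 gene counts each and the rat lines 1047535 to 1242937. Rn45s, the precursor of ribosomal RNA, took 20.7% to 50.1% of those of mouse. Mouse levels below are CPM (counts scaled to a common library size) of the TMM-scaled library, and differences are log2 fold changes with standard errors (SE). They were tested with edgeR's quasi-likelihood test over 10895 genes, Benjamini-Hochberg adjusted, with a threshold of 0.05, and all 10 members were among the genes tested. Of 9 endoderm marker genes, 9 were higher in pXEN and 9 were higher in XEN than in ES lines. Of 7 pluripotency genes, 7 were lower in both than in ES lines. In bulk RNA, fewer cells of a type and less RNA per cell cannot be told apart.

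The members apart from Fkbp10 stood above ES levels in both pXEN and XEN lines. In pXEN against ES lines, 9 of the 9 members tested were called higher and 0 lower, where 18.2% of all genes tested were called higher and 17.8% lower. Their median log2 fold change was 4.24, against -0.03 for all genes tested. In XEN against ES lines, 9 of 10 members were called higher and 0 lower, where 20.7% of all genes were called higher and 17.8% lower. The median log2 fold change of the 10 members was 3.88, against 0.00 for all genes. Fkbp10, the member not called, was chosen for standing out in pXEN over both groups, so its test here is not independent of the choice. In pXEN against XEN lines, 0 of 9 members were called, where 0.918% of all genes were called higher and 3.63% lower. A count of 0 of 9 lies near these shares and is no result about the members. For that comparison edgeR gave 0 of 9 members an unadjusted p under 0.05, and DESeq2 called 0. The folds of pXEN over XEN were 0.728 (P4ha1) to 1.22 (Colgalt1), and over the 9 members the lowest bound of a 95% interval was 0.487 (P4ha1) and the highest 1.76 (Colgalt1). Both comparisons with ES cells share the 2 ES lines. Together the 10 genes took 0.735%, 0.948% and 0.921% of the counts without Rn45s in pXEN2, pXEN4 and pXEN6. The share was 1.05%, 0.848% and 0.915% in XEN1, XEN2 and XEN5, and 0.0718% and 0.0816% in ES2 and ES3.

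**Figure D1:**
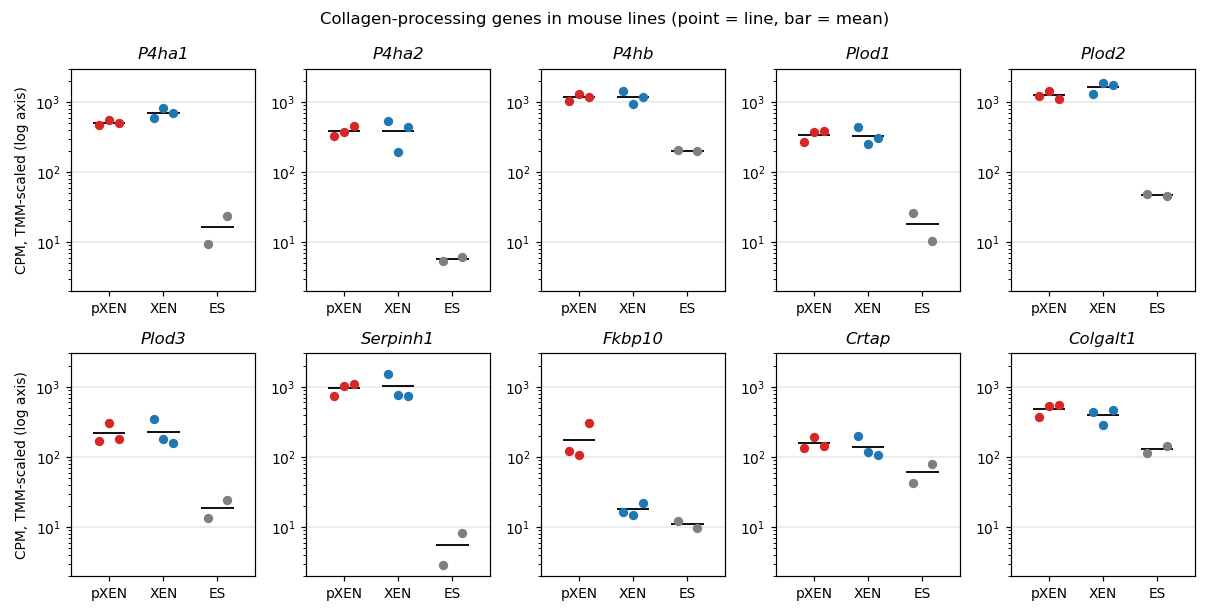
CPM of the TMM-scaled library (log axis) of the 10 genes in each mouse line, with pXEN, XEN and ES from left to right. Points are lines and bars are group means. Fkbp10 lies at 105 to 304 CPM in pXEN lines, above every XEN and ES line, while in the other panels the pXEN and XEN lines lie above the ES lines.

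Prolyl 4-hydroxylase. P4ha1 encodes an alpha subunit, which carries the catalytic site (ENSMUSG00000019916.14, chromosome 10, 59323296 to 59373304, plus strand, GRCm38). P4ha1 stood at 475, 553 and 503 CPM in pXEN2, pXEN4 and pXEN6, at 590, 827 and 687 CPM in XEN1, XEN2 and XEN5, and at 9.46 and 23.8 CPM in ES2 and ES3. All pXEN lines lay below all XEN lines, and both groups lay above the ES lines. It was 30.5-fold higher in pXEN than in ES lines (log2 4.93, SE 0.38, edgeR adjusted p = 6.93e-06) and 42.0-fold higher in XEN than in ES lines (log2 5.39, SE 0.39, edgeR adjusted p = 4.77e-06). The log2 fold change of pXEN over XEN was -0.46 (SE 0.26, edgeR adjusted p = 0.478), with a 95% interval of the fold of 0.487 to 1.09. Without ES3 the log2 fold changes over ES were 5.76 in pXEN and 6.21 in XEN lines.

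P4ha2, which encodes a second alpha subunit (ENSMUSG00000018906.14, chromosome 11, 54100095 to 54131665, plus strand), stood at 327, 374 and 456 CPM in the pXEN lines in the same order. The levels were 541, 191 and 440 CPM in the XEN lines and 5.35 and 6.24 CPM in the ES lines. XEN2 lay below every pXEN line and XEN1 above every one, so pXEN and XEN overlapped. The log2 fold change was 6.05 in pXEN against ES (SE 0.51, edgeR adjusted p = 1.59e-05) and 6.06 in XEN against ES (SE 0.51, edgeR adjusted p = 1.76e-05).

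P4hb encodes the beta subunit, protein disulfide isomerase, which also acts as a chaperone outside this enzyme (ENSMUSG00000025130.11, chromosome 11, 120560298 to 120573253, minus strand). P4hb stood at 1020, 1291 and 1179 CPM in pXEN, at 1427, 933 and 1183 CPM in XEN, and at 206 and 199 CPM in ES lines. The pXEN and XEN lines overlapped, and the fold over ES was smaller than that of the alpha subunits, 5.74 in pXEN (log2 2.52, SE 0.24, edgeR adjusted p = 2.45e-05) and 5.83 in XEN (log2 2.54, SE 0.24, edgeR adjusted p = 2.59e-05). Per kb of exon, the level of P4hb was 2.11 to 2.32 times the summed level of P4ha1 and P4ha2 in pXEN lines, 1.41 to 2.17 times in XEN lines, and 22.9 and 10.2 times in ES2 and ES3.

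Among the alpha subunit genes per kb, P4ha1 held 66.4% ± 3.75 in pXEN (SD, n = 3), 72.5% ± 12.6 in XEN (n = 3) and 79.1% ± 8.77 in ES lines (n = 2). P4ha3, the remaining alpha subunit gene and no member of the set, held 0.687% ± 0.219 in pXEN and 0.899% ± 0.430 in XEN lines, and had 0 counts in both ES lines. Measured against 3 counts over the ES group, the level of P4ha3 was at least 6.84-fold higher in pXEN lines. For XEN lines the bound was at least 11.0-fold higher. XEN2 stood apart in this family, with P4ha1 at 6.56 times P4ha2 per kb, against 1.65 and 2.37 times in XEN1 and XEN5.

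**Figure D2:**
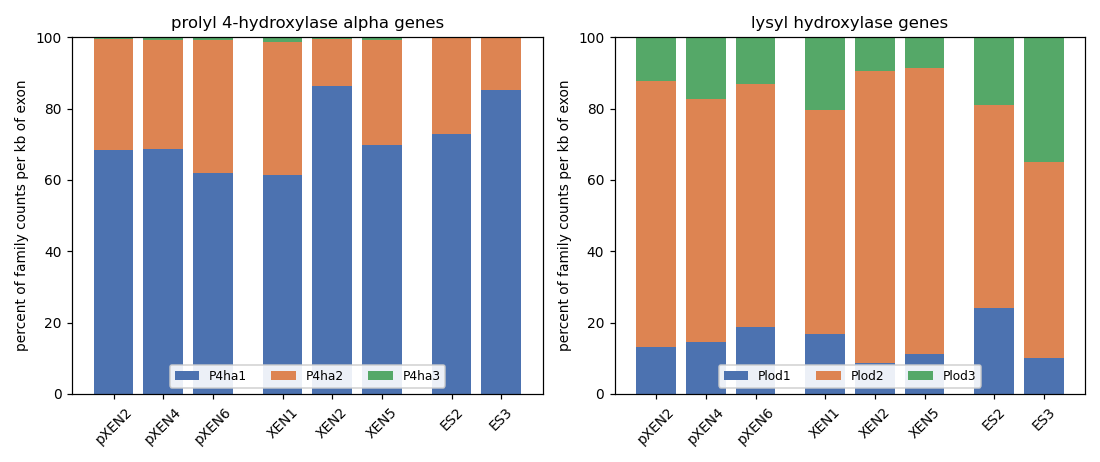
Share of each gene in the summed level per kb of exon of the prolyl 4-hydroxylase alpha genes (left) and the lysyl hydroxylase genes (right), as stacked bars for each mouse line in the order pXEN, XEN and ES. P4ha1 holds 66.4% of the alpha level in pXEN, 72.5% in XEN and 79.1% in ES on average, and Plod2 is the main lysyl hydroxylase gene in every line.

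Lysyl hydroxylases and the galactosyltransferase. Plod2 encodes the lysyl hydroxylase known for acting on collagen telopeptides (ENSMUSG00000032374.14, chromosome 9, 92542223 to 92608428, plus strand). Plod2 stood at 1207, 1434 and 1119 CPM in pXEN, at 1293, 1880 and 1732 CPM in XEN, and at 48.5 and 46.4 CPM in ES lines. The pXEN and XEN ranges overlapped through XEN1. It was 26.4-fold higher in pXEN (log2 4.72, SE 0.27, edgeR adjusted p = 1.65e-06) and 34.4-fold higher in XEN than in ES lines (log2 5.11, SE 0.27, edgeR adjusted p = 1.39e-06). The log2 fold change of pXEN over XEN was -0.38 (SE 0.19, edgeR adjusted p = 0.386), with a 95% interval of the fold of 0.574 to 1.02.

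Plod1, which hydroxylates lysines of the helical part (ENSMUSG00000019055.15, chromosome 4, 147909753 to 147936767, minus strand), stood at 267, 380 and 383 CPM in pXEN, at 434, 251 and 305 CPM in XEN, and at 25.9 and 10.5 CPM in ES lines. Its pXEN and XEN lines overlapped, and its fold over ES was 18.8 in pXEN (log2 4.24, SE 0.43, edgeR adjusted p = 4.48e-05) and 18.1 in XEN lines (log2 4.18, SE 0.43, edgeR adjusted p = 5.53e-05). Without ES2 these log2 fold changes of Plod1 were 5.03 and 4.97. Plod3 encodes an enzyme that combines lysyl hydroxylase and glycosyltransferase activities (ENSMUSG00000004846.10, chromosome 5, 136987019 to 136996648, plus strand). Plod3 stood at 168, 302 and 180 CPM in pXEN, at 352, 180 and 157 CPM in XEN, and at 13.6 and 24.6 CPM in ES lines. pXEN4 and XEN1 were its high lines, and the pXEN and XEN ranges overlapped. Its log2 fold change was 3.50 in pXEN against ES (SE 0.48, edgeR adjusted p = 0.000363) and 3.59 in XEN against ES (SE 0.48, edgeR adjusted p = 0.000355).

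Per kb, Plod2 held 70.4% ± 3.54 of the lysyl hydroxylase level in pXEN (SD, n = 3), 74.9% ± 10.5 in XEN (n = 3) and 56.0% ± 1.18 in ES lines (n = 2). The lowest share in a pXEN or XEN line was 62.8%, and the highest in an ES line was 56.8%, so the groups did not overlap in this share, which was not tested.

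Colgalt1, the collagen galactosyltransferase (ENSMUSG00000034807.9, chromosome 8, 71610998 to 71624911, plus strand), stood at 368, 537 and 550 CPM in pXEN, at 436, 284 and 469 CPM in XEN, and at 115 and 144 CPM in ES lines. The ES levels were within 4-fold of the other groups, a smaller gap than that of the hydroxylases. The log2 fold change was 1.90 in pXEN against ES (SE 0.29, edgeR adjusted p = 0.000529), 1.61 in XEN against ES (SE 0.29, edgeR adjusted p = 0.00142) and 0.29 in pXEN against XEN (SE 0.24, edgeR adjusted p = 0.664).

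**Figure D3:**
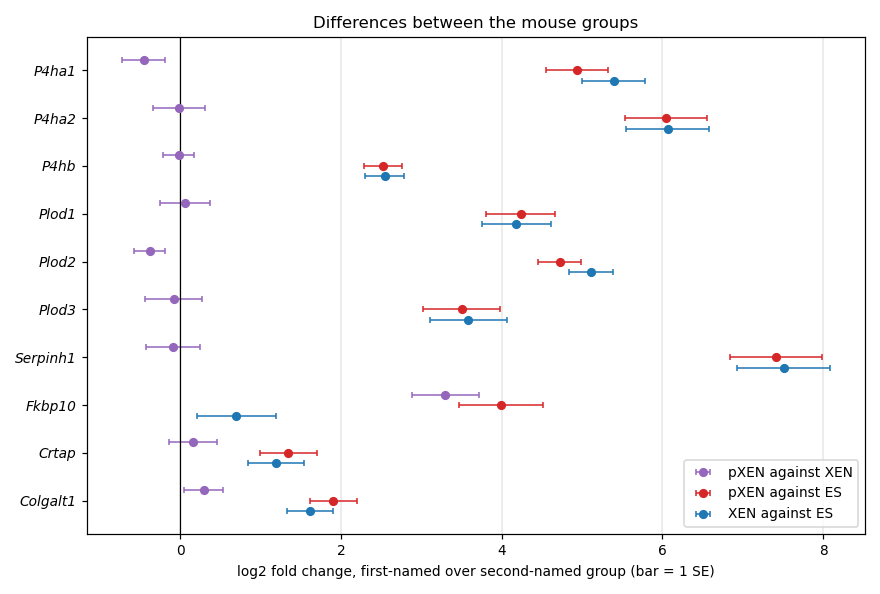
Log2 fold change of each gene in pXEN against XEN, pXEN against ES and XEN against ES, first-named over second-named group, with bars of 1 SE. Serpinh1 shows the largest differences from ES (7.41 and 7.51), Crtap and Colgalt1 small ones, and Fkbp10, whose pXEN points were not tested, lies at 3.30 in pXEN against XEN and 0.70 in XEN against ES.

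Folding helpers. Serpinh1 (also named Hsp47) encodes a chaperone dedicated to collagen (ENSMUSG00000070436.12, chromosome 7, 99345376 to 99353239, minus strand). Serpinh1 stood at 738, 1022 and 1111 CPM in pXEN, at 1550, 768 and 744 CPM in XEN, and at 2.88 and 8.18 CPM in ES lines. The pXEN and XEN lines overlapped, with XEN1 the highest of all. The fold over ES was 171 in pXEN (95% interval 70.5 to 413, log2 7.41, SE 0.57, edgeR adjusted p = 1.39e-05) and 182 in XEN lines (95% interval 74.9 to 442, log2 7.51, SE 0.58, edgeR adjusted p = 1.46e-05). These were the largest folds among the members in both comparisons. Without ES3 the log2 fold changes were 8.37 in pXEN and 8.45 in XEN lines.

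Crtap encodes cartilage-associated protein, a partner of prolyl 3-hydroxylase 1 (ENSMUSG00000032431.6, chromosome 9, 114375134 to 114390675, minus strand). Crtap stood at 134, 194 and 143 CPM in pXEN, at 197, 118 and 108 CPM in XEN, and at 43.2 and 80.3 CPM in ES lines. The ES lines lay below the others, but ES3 came near the lowest XEN line. It was 2.54-fold higher in pXEN (log2 1.34, SE 0.35, edgeR adjusted p = 0.0116) and 2.27-fold higher in XEN than in ES lines (log2 1.19, SE 0.35, edgeR adjusted p = 0.0205). These calls rested on single lines: without ES2 the adjusted p of edgeR was 0.119 in pXEN against ES and 0.180 in XEN against ES, and without XEN1 it was 0.0632 in XEN against ES.

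Fkbp10 encodes FKBP65, a peptidyl-prolyl isomerase of the endoplasmic reticulum that assists procollagen folding and is needed for lysyl hydroxylation of telopeptides (ENSMUSG00000001555.10, chromosome 11, 100415697 to 100424824, plus strand). Fkbp10 stood at 120, 105 and 304 CPM in pXEN2, pXEN4 and pXEN6, at 16.4, 14.7 and 22.5 CPM in XEN1, XEN2 and XEN5, and at 12.3 and 9.74 CPM in ES2 and ES3. Every pXEN line lay above every XEN and ES line, and pXEN6 was the highest. Its log2 fold change was 3.30 in pXEN over XEN lines (9.83-fold) and 4.00 in pXEN over ES lines (15.9-fold), values that chose it and carry no test. In order of log2 fold change in pXEN over XEN, Fkbp10 was number 54 of 10895 genes. Without pXEN6 these log2 fold changes were 2.65 and 3.35. Standing out in pXEN requires lower levels in XEN and ES lines, so the comparison of XEN with ES is not independent of the choice. There the XEN lines all lay above the ES lines, with a log2 fold change of 0.70 (SE 0.49, edgeR adjusted p = 0.289). The 95% interval of the fold, 0.760 to 3.46, includes both no difference and a rise of over 3-fold. Of the 2935 exon bases of Fkbp10, 193 overlap exons of Nt5c3b on the opposite strand. Counting was strand-specific, and Nt5c3b had 68 to 97 counts in pXEN and 39 to 98 in XEN lines.

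Within XEN, the members split by line: XEN1 was the highest XEN line for Crtap, P4ha2, P4hb, Plod1, Plod3 and Serpinh1 and the lowest for P4ha1 and Plod2. Among pXEN lines, pXEN2 was the lowest for 8 members, with Plod2 and Fkbp10 as the exceptions. The shares of all genes highest in XEN1 or lowest in pXEN2 were not computed. These counts are therefore a description and no result about the members. XEN1 also had the lowest passages of the XEN lines, 9 and 10, against 19 to 21 in XEN2 and XEN5, and it was the only female XEN line, while pXEN2 was the only male pXEN line. With sex as a covariate the log2 fold change of Serpinh1 in pXEN over XEN was -0.31 (SE 0.19), against -0.09 (SE 0.34) without it. That of Crtap was -0.01 (SE 0.22), against 0.16 (SE 0.30), and 0 of the 9 members were called. The part of passage in these values was not tested.

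Ordered by CPM per kb of exon, P4hb (407 ± 47.7, SD, n = 3) and Serpinh1 (392 ± 79.7) led in pXEN lines and did not differ beyond their spread. Plod2 followed at 232 ± 30.2, then P4ha1 at 124 ± 9.62 and Colgalt1 at 112 ± 23.5, whose lines overlapped. Fkbp10, at 60.1 ± 37.6, overlapped its neighbours P4ha2 and Plod1. In XEN lines, Serpinh1 (418 ± 188), P4hb (413 ± 86.4) and Plod2 (303 ± 56.6) led, each overlapping the next, and Fkbp10 was last at 6.08 ± 1.39, below every line of Plod1, the next above it. In ES lines the order began with P4hb (70.8 ± 1.89, n = 2), Crtap (34.8 ± 14.8) and Colgalt1 (30.0 ± 4.75). Serpinh1 (2.26 ± 1.54) and P4ha2 (0.928 ± 0.101) closed it, so Serpinh1 was number 9 of 10 in ES lines and number 1 or 2 in XEN and pXEN lines.

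The 6 genes whose levels over the 8 mouse lines were most like those of Fkbp10, by Pearson's r of log2(CPM + 1), were Pole3 (0.965), Aplf (0.955), Plekhf1 (0.954), Fcer1g (0.951), Mir669i (0.948) and Cyp26a1 (0.947). Cyp26a1, a retinoic acid hydroxylase, stood at 12.2, 21.4 and 42.2 CPM in pXEN, at 0, 1.95 and 0.528 CPM in XEN, and at 0 and 0.779 CPM in ES lines. It was the only 1 of the 6 with a mean above 20 CPM in pXEN and below 1 CPM in XEN and ES lines. Pole3 stood between 14.2 and 15.8 CPM in pXEN and between 11.1 and 11.9 CPM in XEN lines, so a high r went with a small difference. The r of the other 9 members to Fkbp10 was 0.472 to 0.678, with Colgalt1 highest. The 8 points share group and library, and with unstranded counts 2 of the 6 genes remained among the 6 most alike.

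Among the other genes of collagen modification, folding and export, 41 were listed and 36 passed the filter on low counts. In pXEN against ES lines, 28 were called higher and 1 lower, where 18.2% of all genes were called higher and 17.8% lower. In XEN against ES lines, 29 were called higher and 2 lower, where 20.7% of all genes were called higher and 17.8% lower. In pXEN against XEN lines, 0 were called higher and 2 lower, where 0.918% and 3.63% of all genes were. The counts of this last comparison lie near the background and are no result about the list. The median log2 fold changes of the list were 1.75, 1.61 and 0.08 in this order, against -0.03, 0.00 and 0 for all genes. Kdelr3, a receptor that returns proteins to the endoplasmic reticulum, stood at 291, 407 and 367 CPM in pXEN, at 421, 372 and 370 CPM in XEN, and at 6.17 and 3.90 CPM in ES lines, with a log2 fold change of 6.13 in pXEN against ES (edgeR adjusted p = 1.65e-06). Creb3l2, a transcription factor of secretory genes, had 129, 125 and 136 counts in pXEN and 100, 88 and 137 in XEN lines, against 1 and 3 in ES lines. P3h2, a prolyl 3-hydroxylase, had 527 counts over the pXEN lines and 374 over the XEN lines, against 1 over the ES lines.

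Sparc, an extracellular protein that binds collagen, stood at 1260, 1377 and 984 CPM in pXEN, at 1355, 602 and 1275 CPM in XEN, and at 22.6 and 40.5 CPM in ES lines. P3h1 and Ppib, which form a complex with Crtap, were also higher than in ES, with log2 fold changes of 2.67 and 1.58 in pXEN and 2.60 and 1.47 in XEN lines. Pcolce, an enhancer of procollagen C-proteinase, was lower where most of the list was higher. It had 1, 1 and 0 counts in pXEN and 16, 14 and 33 in XEN lines, against 111 and 37 in ES lines, and was called lower in all 3 comparisons (edgeR adjusted p = 0.00702 in pXEN against XEN, 6.83e-05 in pXEN against ES and 0.00669 in XEN against ES). Without ES2 the last of these was 0.221, and the log2 fold change of Pcolce in pXEN against ES was -5.91 in place of -6.97. Creb3l1, a transcription factor that drives collagen secretion in bone, had 1, 3 and 0 counts in pXEN against 6, 23 and 31 in XEN lines (edgeR adjusted p = 0.0370). With sex as a covariate its adjusted p was 0.133, without pXEN2 or pXEN6 it was 0.132 and 0.0931, and without XEN2 or XEN5 it did not pass the filter on low counts. Klhl12, an adaptor for the export of procollagen, was lower in XEN than in ES lines (edgeR adjusted p = 0.0382), a call lost without any single XEN line or without ES2 (0.0511 to 0.296).

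**Figure D4:**
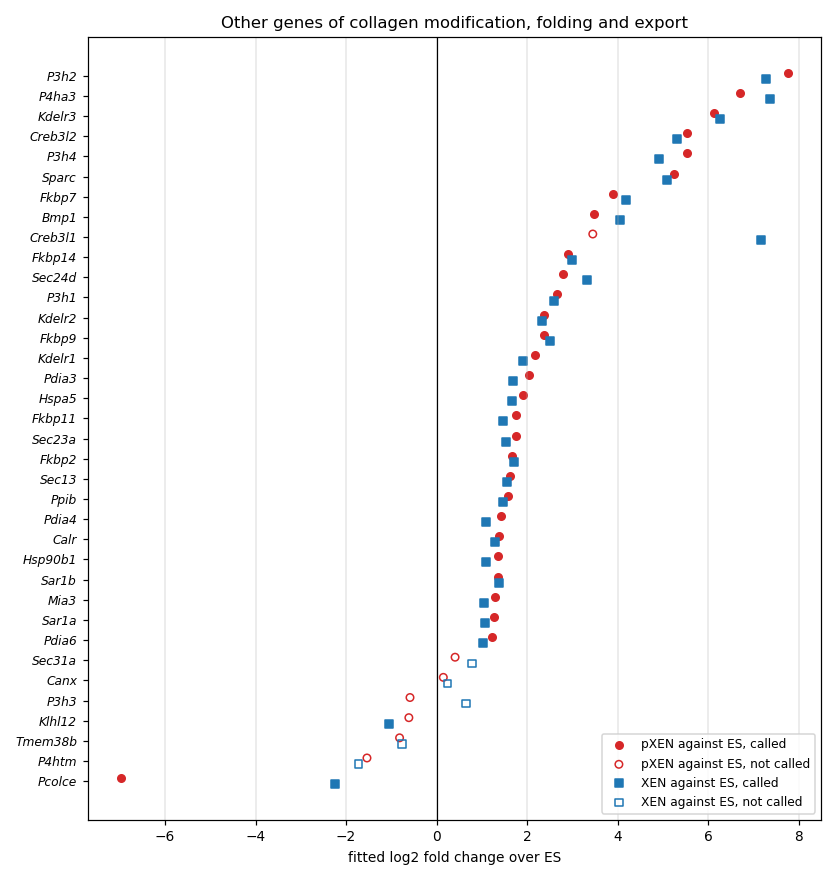
Fitted log2 fold change over ES of the 36 other collagen-processing genes that passed the filter, in pXEN (circles) and XEN (squares), filled where called. Most genes lie to the right of 0 in both, and Pcolce lies to the left in both. The fitted values of P4ha3 and Creb3l1, with 0 counts in ES, depend on the prior count.

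By summed level, the listed basement membrane collagen genes led the listed fibrillar ones in every mouse group. They summed to 3726 to 10641 CPM in pXEN, 3035 to 14514 CPM in XEN and 227 to 253 CPM in ES lines. Col4a1 and Col4a2, the main chains of basement membrane collagen, averaged 2146 and 4196 CPM in pXEN lines. They averaged 3580 and 4710 CPM in XEN and 16.8 and 22.6 CPM in ES lines. Neither was called between pXEN and XEN lines (edgeR adjusted p = 0.681 and 0.977), whose ranges overlapped. Of the 8 listed basement membrane collagen genes 4 were tested, and the remaining ones of these were not higher in both pXEN and XEN than in ES lines. Col18a1, which encodes the precursor of endostatin, averaged 0.569 CPM in pXEN and 8.65 CPM in XEN lines against 201 CPM in ES lines and was called lower in both. Col4a5 had 0 counts in pXEN and in ES lines and 127 over the XEN lines, and was called lower in pXEN than in XEN and higher in XEN than in ES lines. The 7 tested fibrillar collagen genes were all lower in pXEN than in XEN lines: their listed genes summed to 0.987 to 1.42 CPM in pXEN and 146 to 209 CPM in XEN lines, with 4.93 to 5.85 CPM in ES lines. None of the 9 members tested was called in that comparison, where 0.918% of all genes tested were called higher and 3.63% lower. As a summed level, the 18 listed fibroblast markers were highest in the XEN lines, which grew on feeder cells. They summed to 20.1 to 24.2 CPM in pXEN, with 11 to 14 of 18 at 0, to 752 to 983 CPM in XEN, with 1 or 2 at 0, and to 22.2 to 34.5 CPM in ES lines, with 9 to 11 at 0. Of the 15 tested, 14 were called lower in pXEN than in XEN lines. In XEN against ES lines, 13 of the 15 were called higher, where 20.7% of all genes tested were. Col1a1, Col1a2 and Col3a1 belong to both the fibroblast and the fibrillar collagen list, so the counts of these lists share them. Pdgfrb was not called in pXEN against XEN, Twist1, Twist2 and Fap did not pass the filter on low counts, and Twist1 was highest in ES lines. In pXEN lines Col1a2 and Col3a1 had 0 counts while P4hb stood at 1020 to 1291 CPM and Serpinh1 at 738 to 1111 CPM. The part of fibroblast RNA in the XEN levels was not tested.

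P4ha1, P4ha2 and Plod2 are known to respond to low oxygen. Of 16 tested genes of a hypoxia list, 2 were higher (Vegfa and Egln3) and 2 lower (Pdk1 and Kdm3a) in pXEN than in ES lines. In XEN against ES lines, 4 were higher (Vegfa, Bnip3, Egln3 and Ndrg1) and the same 2 lower. In pXEN against XEN lines, 1 was higher (Pfkfb4) and 1 lower (Egln3). Over ES lines, 18.2% of all genes tested were called higher in pXEN and 20.7% in XEN lines. Between pXEN and XEN lines the shares called were 0.918% (higher) and 3.63% (lower). The counts of calls lie near these shares and are no result about the hypoxia list. Its median log2 fold change was -0.78 in pXEN against XEN, where that of all genes was 0. Only Vegfa and Pfkfb4 of its tested genes lay above 0 there. Over ES lines the medians of the list were -0.33 in pXEN and 0.31 in XEN lines, against -0.03 and 0.00 for all genes. The shift of the list as a whole was not tested.

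In rat XENP lines, 9 of the 10 members had 97 or more counts in every line. Rat and mouse levels were set side by side as CPM over 14386 symbols present in both species, without Rn45s. They were not tested against each other, since species, genome and annotation change with the group, and 65.5% to 70.1% of rat reads were multimapping, against 7.84% to 9.65% in mouse. Serpinh1 stood at 4432, 6628, 6073 and 5704 CPM in CX1, MAX2, MAX3 and MAX8, against 1306 to 1999 CPM in pXEN, 1349 to 2779 CPM in XEN and 5.04 to 14.4 CPM in ES lines. It was the most counted member in all 4 rat lines. Plod2 stood at 195, 131, 157 and 88.9 CPM in the rat lines, against 2013 to 2571 CPM in pXEN, 2319 to 3394 CPM in XEN and 81.4 to 84.9 CPM in ES lines. All rat lines thus lay below the mouse pXEN and XEN lines and above the ES lines, with MAX8 nearest to ES. The part of annotation or counting in the rat Plod2 level was not tested.

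Fkbp10 stood at 92.8 CPM in CX1 and at 207, 212 and 200 CPM in MAX2, MAX3 and MAX8, against 189 to 546 CPM in pXEN, 26.6 to 40.7 CPM in XEN and 17.1 to 21.6 CPM in ES lines. All rat lines lay above the mouse XEN and ES lines. Colgalt1 stood at 947 to 1585 CPM in XENP, against 651 to 990 CPM in pXEN lines. P4ha1 stood at 338 to 523 CPM in XENP against 840 to 991 CPM in pXEN lines, P4ha2 at 245 to 424 against 578 to 821 CPM, and P4hb at 634 to 808 against 1804 to 2315 CPM. Plod1 stood at 120 to 219 CPM in XENP against 472 to 688 CPM in pXEN lines, and Plod3 at 164 to 310 against 298 to 542 CPM, the ranges of which overlap.

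Crtap had 2, 0, 0 and 0 counts in CX1, MAX2, MAX3 and MAX8, against 237 to 348 CPM in pXEN lines. A count of 0 allows up to 2.85, 2.94 and 2.75 CPM in MAX2, MAX3 and MAX8, which covers counting error only. Its partners were present in rat: P3h1 had 171 to 250 counts and Ppib 470 to 577 counts per line. Whether the low Crtap count reflects the annotation or the counting of the rat gene was not tested.

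**Figure D5:**
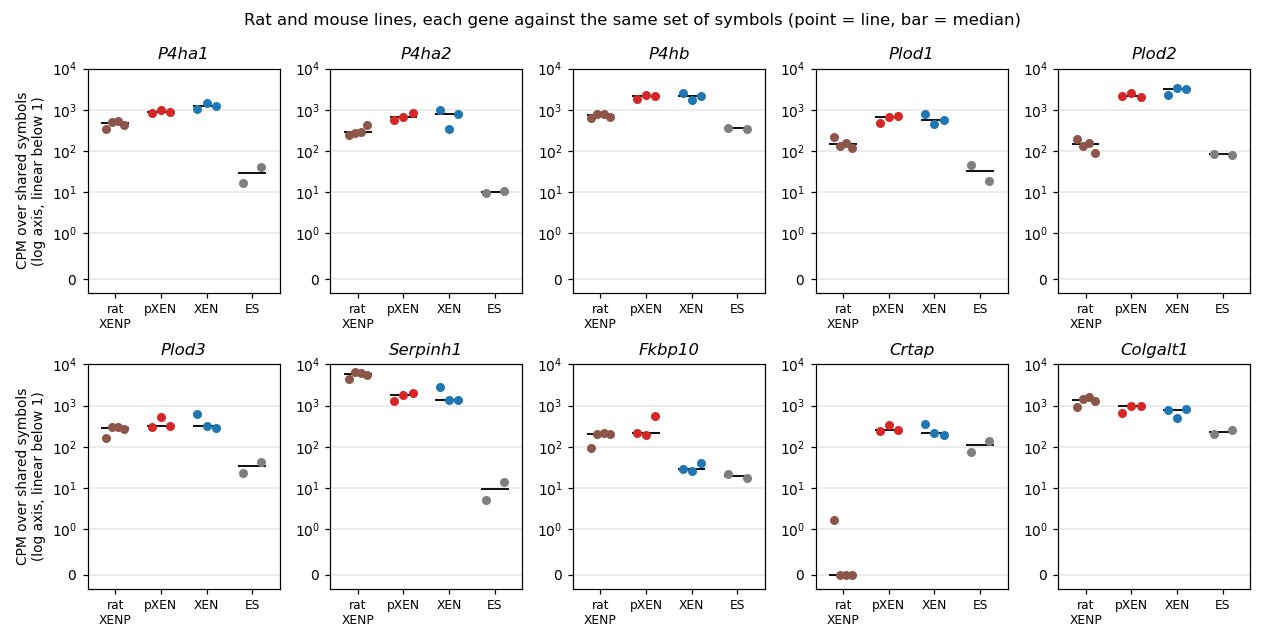
CPM over the symbols shared by rat and mouse (log axis, linear below 1) of the 10 genes in rat XENP and mouse pXEN, XEN and ES lines, from left to right. Points are lines and bars are group medians. Rat lines lie highest for Serpinh1 (4432 to 6628 CPM). For Plod2 they lie below mouse pXEN and XEN and above mouse ES, and for Crtap at or near 0.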

How the data were processed

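Libraries that keep strand were made after removal of ribosomal RNA and sequenced as paired ends, per the labels' protocols. What the authors deposited are whole-number gene counts, in unstranded, forward and reverse columns per line. The submitters' processing notes name STAR 2.5.1, Trimmomatic 0.33, CASAVA 1.8.2, DESeq2 and the builds rn6 and mm10, without roles. The sources used here do not give the annotation that was counted. Reverse-strand counts were used, since they held 98.9% to 99.3% of stranded counts in mouse and 99.1% to 99.2% in rat. Rows of read classes, 73.4% to 78.3% of mouse reads and 89.7% to 91.8% of rat reads, were left out.

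All 8 mouse lines were fitted together with edgeR 4.0.16 under R 4.3.3 (TMM, filterByExpr with a minimum count of 10, robust quasi-likelihood fit), and adjusted p-values cover 10895 genes. SE was taken from the F statistic (size of the log2 fold change over the root of F). The 95% intervals use the total degrees of freedom of the fit, the residual ones plus those shared across genes. Levels per kb use the exon length of GENCODE vM21 (GRCm38). The fit was tested on simulated data. Members, lists and tests were chosen with earlier results of these data known. Other pathway genes were named by smallest p, by a direction against the list or as partners of members, partly after their values were seen. Alternatives were other scalings, DESeq2 1.42.0, no filter, removal of Rn45s, unstranded counts, sex as a covariate, fits of 2 groups and leaving out each line. The 95% intervals of folds cover the spread between lines, while floors of counts cover counting error only.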

Additional observations from a re-analysis of the deposited data

Results flagged for a closer look

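Fkbp10 in the rat line CX1 lay apart from the other 3 rat lines, at 92.8 CPM over shared symbols, against 200 to 212 CPM in MAX2, MAX3 and MAX8. The gap to the nearest line was 0.901 of the range, above the Dixon limit for 4 samples, which chance passes in about 1 in 20 groups, and 9 members were screened in this way. The level rests on 112 counts in CX1 and 216 to 218 in the others. Of these 9 members, 7 were lowest in CX1: besides Fkbp10 they were P4ha1 (338 CPM), P4ha2 (245), P4hb (634), Plod3 (164), Serpinh1 (4432) and Colgalt1 (947). The other 2, Plod1 and Plod2, were highest there (219 and 195 CPM). How many of all rat genes were lowest or highest in CX1 was not computed, so these counts are no result about the members. Col4a1 was lowest in CX1 (6613 CPM, against 12764 to 15593 in the other rat lines) and so was Sparc (6421 against 13241 to 15868). Other listed genes were highest there, among them P3h2 (482 CPM, against 99.9 to 290) and the endoderm marker Dab2 (460 against 93.5 to 226). The pluripotency gene Pou5f1 stood at 168 CPM in CX1, against 6.42 to 8.54 CPM in the other rat lines. CX1 had the highest passages, 38 and 40, against 10 to 17 in the MAX lines, and the part of passage in these values was not tested.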

How the results depend on the processing

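The counts of members called stayed within 1.5 times in each of the 3 mouse comparisons under the 16 alternatives run. Of 448 tested member fold changes under these alternatives, 445 kept their side of the threshold, with their direction where called. The 3 exceptions are the Crtap calls in the report. Members not called in pXEN against XEN had log2 fold changes of -0.58 to 0.46 over the alternatives. Counts of other pathway genes were less steady where they were small. Those lower in pXEN than in XEN numbered 1 with sex as a covariate and 1 in the fit of 2 groups, and 1 to 2 when single lines were left out. Those lower in pXEN than in ES numbered 3 with no low-count filter and 1 to 2 when single lines were left out, and those lower in XEN than in ES 0 to 2. The P4ha3 share in ES lines was 2.00% with unstranded counts. The causes were not tested. Upper-quartile scaling moved the median of all genes by -0.10 in pXEN against ES and by -0.11 in XEN against ES. Without CX1, an alternative chosen after seeing the data, the median Fkbp10 level of the rat lines was 207 CPM, against 203 with it. No paired analysis was possible because the mouse groups share the single line number 2 and were derived separately. Depth limits Crtap in rat, P4ha3 in ES and Pcolce in pXEN, which rest on 2 counts or fewer.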
